A study of Mus musculus with 10 samples.

Results

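The core circadian clock is a loop of transcription factors and repressors that turns once a day in nearly every cell. Described here are its 10 best known genes in mouse: the activators Arntl (also called Bmal1), Clock and Npas2, the repressors Per1, Per2, Per3, Cry1 and Cry2, and the nuclear receptors Nr1d1 and Nr1d2 (REV-ERB alpha and beta). They were taken from a list by symbol. All 10 were found among 33632 gene IDs of the count table, and all 10 passed the filter on low counts among 14963 tested genes. The list was selected on the measured differences between CKO and flox in these same libraries, so for these genes that comparison is given as a description and supports nothing.

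RNA sequencing was done on crypts of the mouse colon, the epithelial glands that hold its stem cells. The 5 flox libraries carried the genotype Sox21fl/fl, in which both copies of Sox21, a Sox family transcription factor, are flanked by loxP sites. The 5 CKO libraries carried Lgr5-EGFP-IRES-CreERT2/+;Sox21fl/fl, that is, the same alleles plus 1 copy of a knock-in at Lgr5 that makes a green fluorescent protein and a tamoxifen-inducible Cre recombinase in Lgr5-positive stem cells. Cells without Lgr5 expression do not make the Cre, and crypts hold many such cells. The share of crypt cells that carried the deletion is not known here. Every sample was labelled normal diet and normal liver. The labels give no age, no tamoxifen schedule, no hour of collection, and no light or feeding schedule. They do not say whether each library was a separate mouse, so errors measure the spread between these libraries.

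In the loop, BMAL1 (the protein of Arntl) pairs with CLOCK or NPAS2 and binds E-box sequences in front of the Per, Cry and Nr1d genes. PER and CRY proteins build up, enter the nucleus and shut that pair off. REV-ERB proteins repress Arntl and Npas2 through another sequence, the RORE, where ROR receptors activate. PAR bZIP factors such as DBP and TEF act on the D-box, and NFIL3 competes with them there. In tissues that cycle, Arntl and Npas2 transcripts are in opposite phase to Nr1d1, and Nr1d1 and Dbp peak earlier in the day than Per2, with Cry1 later still. Epithelial cells of the gut have such a clock, which responds to feeding time.

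Promoter sequences show where these 3 elements lie in the loop. RefSeq promoters of build GRCm38.p6, each running from 250 bases before to 50 bases after a transcript start, were available for 9 of the 10 genes (not Per2) in 13 windows. Both strands were searched for the E-box CACGTG, its variant CACGTT, the D-box TTATGTAA, the RORE core TAGGTCA and the cyclic AMP element TGACGTCA. The E-box was found in Per1 and Cry1, against 7.15% of all 32851 windows. The variant was found in Cry1, Cry2 and Nr1d1, against 4.68% of windows. The D-box occurred 2 times in Per3 (0.938% of windows hold it), the RORE core in Arntl (2.61%), and the cyclic AMP element in 0 of the members' windows (1.79%). Its shorter form TGACGT, also searched, began 132 bases before the start in a Per1 window not printed here (7.51% of windows hold it). The 4 windows that carry these elements most plainly are printed 5′ to 3′ on the gene's strand, with the matches in capitals.
Per1, an E-box that begins 166 bases before the start (chr11:69098699-69098998, plus strand): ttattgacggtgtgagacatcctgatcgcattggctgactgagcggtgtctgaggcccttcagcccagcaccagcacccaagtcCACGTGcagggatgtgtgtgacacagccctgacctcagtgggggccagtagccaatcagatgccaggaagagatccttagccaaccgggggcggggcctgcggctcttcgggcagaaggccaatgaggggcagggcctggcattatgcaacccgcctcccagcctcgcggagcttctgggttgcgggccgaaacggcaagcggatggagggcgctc
Cry1, a variant E-box on the other strand at 79 and an E-box at 60 bases before the start (chr10:85185005-85185304, minus strand): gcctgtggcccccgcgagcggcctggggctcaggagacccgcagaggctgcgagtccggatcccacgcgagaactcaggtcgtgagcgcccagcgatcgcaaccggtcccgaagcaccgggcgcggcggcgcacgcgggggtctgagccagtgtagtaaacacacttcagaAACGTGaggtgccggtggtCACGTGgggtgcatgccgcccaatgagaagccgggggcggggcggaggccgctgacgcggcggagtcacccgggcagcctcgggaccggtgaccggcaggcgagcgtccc
Per3, D-boxes at 205 and 158 bases before the start (chr4:151044616-151044915, minus strand): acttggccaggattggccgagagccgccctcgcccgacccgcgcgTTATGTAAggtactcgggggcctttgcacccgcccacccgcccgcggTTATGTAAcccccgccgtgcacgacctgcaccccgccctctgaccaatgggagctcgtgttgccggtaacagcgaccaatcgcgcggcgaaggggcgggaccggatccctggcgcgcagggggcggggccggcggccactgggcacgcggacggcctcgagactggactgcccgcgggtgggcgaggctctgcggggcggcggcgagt
Arntl, a RORE core that begins 30 bases after the start (chr7:113207261-113207560, plus strand): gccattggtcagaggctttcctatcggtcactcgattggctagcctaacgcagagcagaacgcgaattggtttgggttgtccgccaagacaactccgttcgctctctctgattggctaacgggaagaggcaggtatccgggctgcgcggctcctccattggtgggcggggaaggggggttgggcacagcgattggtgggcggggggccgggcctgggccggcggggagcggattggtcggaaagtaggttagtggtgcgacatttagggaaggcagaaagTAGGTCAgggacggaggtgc
A match is only a run of letters, and a window without one says nothing about sites elsewhere in the gene.

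Levels below are CPM, counts scaled to the normalized library size, unless FPKM is named. Libraries held 18926634 to 23642415 counts. The mitochondrial share of reads was 26.5% (flox 1) and 29.3% (flox 4), and 4.30% to 11.8% elsewhere; values that rest on these 2 libraries are also given without them. Sox21, the targeted transcript, ran from 1.98 to 6.53 CPM in flox and from 3.39 to 7.79 CPM in CKO; its level was not lower in CKO and gave no check of the label, since which part of the gene was deleted is not known here, and each group name means the libraries labelled with it. Of 18 defining markers of colon epithelium, 18 passed the filter and 0 were at 0 in every library. In bulk RNA, fewer cells of a type and less RNA per cell cannot be told apart.

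Among the members, the PER and CRY repressors were higher in CKO, 5 of 5 by their fold change, and Nr1d1 was lower. Of the activators, Clock was higher by less. The 95% interval of the ratio took in 1 for Arntl, Npas2, Per1 (0.967 to 1.83) and Nr1d2 (0.810 to 1.87). In all, 8 of 10 had a log2 fold change above 0 (50.1% of all tested genes did), with a median of 0.38 against 0.001 over all tested genes. By edgeR's quasi-likelihood test 0 of 10 passed an adjusted p of 0.05, where 0% of all genes passed. At an unadjusted p under 0.05 there were 6 of 10, against 13% of all genes. DESeq2 called Per2 and Cry2, both higher, where it called 1.21% of all genes, and 0.409% higher. It called the same 2 without flox 1 and flox 4, where 0.454% of genes passed. Because the comparison was known when the list was made, nothing is read from these counts.

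Per2, a repressor whose transcript follows the state of the clock closely, differed most. It stood at 4.11, 11.04, 9.94, 3.70 and 14.2 CPM in flox 1 to 5, then 13.6, 49.999, 35.5, 24.4 and 44.3 CPM in CKO 1 to 5. CKO 1 lay inside the flox range, below flox 5, and the other 4 CKO libraries lay above every flox library. The log2 fold change was 1.95 ± 0.42 (SE), a ratio of 3.85 with a 95% interval of 2.03 to 7.31 (edgeR adjusted p = 0.209, DESeq2 adjusted p = 0.00127). It was 1.53 without flox 1 and flox 4, with DESeq2 adjusted p = 0.0099, and 2.15 without CKO 1. Over 22 alternatives, among them DESeq2, its adjusted p went from 0.00127 to 0.587.

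Per3, the family member least needed for the rhythm, was the lowest of the 10 in flox by mean FPKM. Its values were 1.66, 4.54, 2.81, 1.21 and 3.98 CPM in flox and 4.03, 5.76, 9.96, 3.89 and 6.51 CPM in CKO. The groups overlapped through flox 2 and flox 5, and flox 1 and flox 4 were lowest. The log2 fold change of 1.06 ± 0.38 (SE) became 0.69 without flox 1 and flox 4. The value of flox 4 came from 16 reads, the thinnest count of any member.

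Per1, an early responder to light, stress hormones and cyclic AMP, was nearer to flox. It ran from 11.4 to 18.96 CPM in flox (median 11.6) and from 11.9 to 24.98 CPM in CKO (median 17.3), with flox 2 above 3 of the 5 CKO libraries. Its log2 fold change was 0.41 ± 0.21 (SE). The Per1 to Per2 ratio within a library averaged 0.81 ± 0.79 over flox libraries and -0.80 ± 0.54 over CKO libraries on the log2 scale (SD, n = 5 each). The groups overlapped through flox 5, at -0.32, and without flox 1 and flox 4 the flox mean was 0.32.

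Cry1 and Cry2, the light-independent cryptochromes that bind PER and block the activators, were the 2 members whose CKO libraries all lay above all flox libraries (0.922% of tested genes did so). Cry1 measured 19.1, 23.4, 21.9, 32.3 and 31.5 CPM in flox and 33.9, 48.8, 34.3, 40.04 and 36.7 CPM in CKO. The gap between the groups was narrow, from flox 4 to CKO 1. Cry2 measured 16.1, 15.3, 14.0, 16.0 and 12.5 CPM in flox and 16.2, 24.4, 25.4, 31.9 and 23.95 CPM in CKO. Here CKO 1 sat next to flox 1, and the other 4 CKO libraries stood well clear. The log2 fold changes were 0.59 ± 0.17 for Cry1 and 0.72 ± 0.17 for Cry2 (SE), and 0.60 and 0.81 without flox 1 and flox 4. In the GENCODE M21 annotation 295 of 6320 exon bases of Cry2 lie opposite the transcript D930015M05Rik, which had 0 to 5 reads per library. The Cry1 to Cry2 ratio within a library differed between groups by less than its spread, averaging 0.77 ± 0.41 over flox libraries and 0.68 ± 0.33 over CKO libraries on the log2 scale (SD, n = 5 each).

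**Figure D1:**
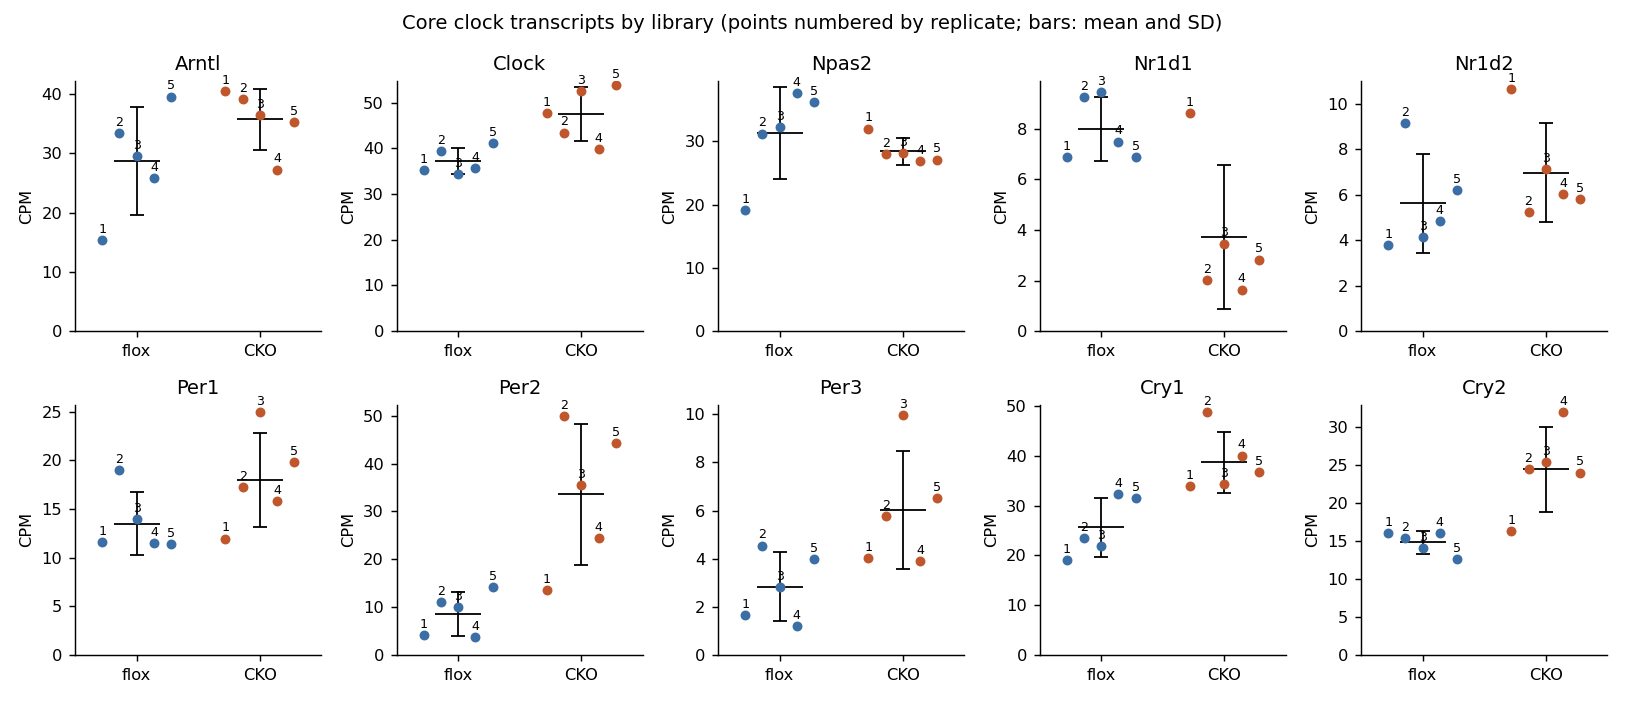
Levels of the 10 core clock transcripts (vertical axes, CPM) in the flox and CKO libraries, with points numbered by replicate and bars for the mean and SD of 5 libraries. In Per2, Nr1d1 and Cry2 the point of CKO 1 lies beside the flox points, at 13.6, 8.62 and 16.2 CPM, apart from the other CKO libraries.

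The REV-ERB genes went separate ways. Nr1d1, the stronger repressor of Arntl, stood at 6.88, 9.23, 9.45, 7.48 and 6.88 CPM in flox and at 8.62, 2.03, 3.46, 1.65 and 2.83 CPM in CKO. CKO 1 again lay inside the flox range, and the other 4 CKO libraries lay below every flox library. The log2 fold change was -1.10 ± 0.39 (SE), a ratio of 0.465 with a 95% interval of 0.258 to 0.840 (edgeR adjusted p = 0.365). Without CKO 1 it was -1.67, and without flox 1 and flox 4 it was -1.19. The value of CKO 4 rests on 30 reads, a counting error of 18.3%. In the GENCODE M21 annotation 263 of 3077 exon bases of Nr1d1 lie opposite exons of Thra, a thyroid hormone receptor gene, and since the strand setting of the counting is not given, reads there cannot be told apart. The flox libraries averaged 39.3 ± 2.76 CPM of Thra, and the CKO libraries 38.9 ± 4.97 CPM (SD, n = 5 each).

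Nr1d2, the partner that can stand in for Nr1d1, ran from 3.80 to 9.16 CPM in flox (median 4.84) and from 5.25 to 10.6 CPM in CKO (median 6.03). CKO 1 was its highest library and flox 2 the next. Its log2 fold change was 0.30 ± 0.28 (SE), 0.55 without flox 2, and 0.10 both without flox 1 and flox 4 and without CKO 1. The Nr1d2 to Nr1d1 ratio on the log2 scale was -0.84, -0.01, -1.17, -0.62 and -0.15 for flox 1 to 5, against 0.30, 1.33, 1.02, 1.82 and 1.01 for CKO 1 to 5. On this ratio the groups did not overlap, with CKO 1 the nearest to flox.

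Of the activators, Clock differed in the same direction as the PER and CRY genes, by less. It ran from 34.4 to 41.1 CPM in flox and from 39.8 to 53.7 CPM in CKO, with CKO 4 below flox 5, and its log2 fold change was 0.35 ± 0.12 (SE, edgeR adjusted p = 0.365). Arntl stood at 15.3, 33.4, 29.5, 25.8 and 39.6 CPM in flox and 40.5, 39.1, 36.5, 27.3 and 35.3 CPM in CKO. Its low values were those of flox 1 and flox 4 and, in CKO, of CKO 4, the CKO library with the highest mitochondrial share. The log2 fold change of 0.31 ± 0.22 (SE) was 0.07 without flox 1 and flox 4. The 95% interval of the Arntl ratio over all libraries ran from 0.894 to 1.72.

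Npas2, a relative of Clock that can replace it, ran from 19.1 CPM in flox 1 to 37.6 CPM in flox 4, and in CKO from 26.9 to 28.2 CPM in 4 libraries with CKO 1 at 32.0 CPM. Npas2 had a log2 fold change of -0.14 ± 0.17 (SE), which was -0.22 without flox 1 and flox 4, -0.27 without flox 1 and -0.06 without flox 4. It was above 0 on the deposited FPKM scale, where the median of all genes was also higher in CKO. Set against Clock in the same library, Npas2 averaged -0.28 ± 0.36 in flox and -0.73 ± 0.20 in CKO on the log2 scale (SD, n = 5 each). The groups overlapped through flox 1, at -0.88.

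**Figure D2:**
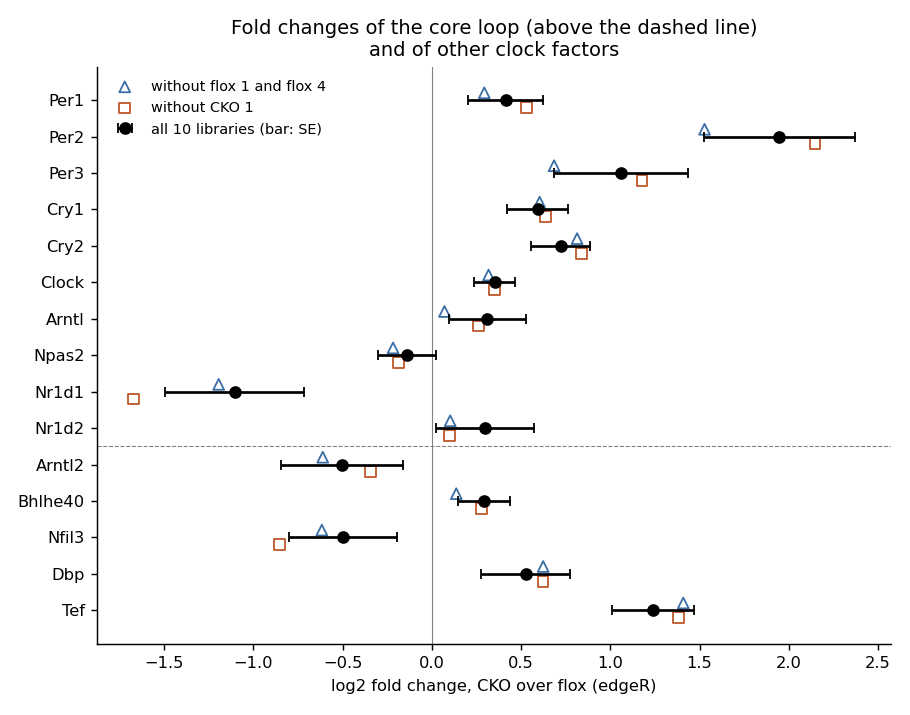
Log2 fold change of CKO over flox from edgeR (horizontal axis) for the core loop, above the dashed line, and for other tested clock transcription factors below it. Filled points with SE bars are from all 10 libraries, triangles leave out flox 1 and flox 4, squares leave out CKO 1; Per2 is at 1.95 and Nr1d1 at -1.10, or -1.67 without CKO 1.

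A difference between 2 transcripts within 1 library does not depend on how libraries are scaled, which matters here because flox 1 and flox 4 had normalization factors of 0.585 and 0.605, against 0.965 to 1.28 elsewhere. The mean log2 CPM of the 3 activators minus that of the 5 PER and CRY repressors was 1.51, 1.42, 1.61, 2.06 and 1.68 for flox 1 to 5, against 1.61, 0.68, 0.66, 0.76 and 0.76 for CKO 1 to 5. The last 4 CKO libraries lay within 0.66 to 0.76, below every flox library, and CKO 1 lay within the flox range. The means were 1.66 ± 0.24 in flox and 0.89 ± 0.40 in CKO (SD, n = 5 each), a difference of -0.77, or -0.94 without CKO 1 and -0.68 without flox 1 and flox 4. Absolute values of this measure depend on gene length, and only its differences between libraries are read.

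The ratio of Per2 to Nr1d1, genes that peak at different hours in cycling tissues, had the largest mean difference of the 8 within-library measures, though its groups overlapped through CKO 1. On the log2 scale it was -0.73, 0.26, 0.07, -0.997 and 1.03 in flox 1 to 5. In CKO 1 it was 0.65, and in CKO 2 to 5 it was 4.57, 3.33, 3.82 and 3.93. The group means of -0.07 ± 0.81 and 3.26 ± 1.52 (SD, n = 5 each) therefore hide a CKO group of 4 libraries above 3.3 and 1 library inside the flox range. The mean difference of 3.33 was 2.80 without flox 1 and flox 4 and 3.98 without CKO 1.

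The ratio of Arntl to Per2, an activator against a repressor, gave the same layout. It was 1.88, 1.59, 1.56, 2.77 and 1.47 in flox, 1.57 in CKO 1, and -0.35, 0.04, 0.16 and -0.33 in CKO 2 to 5 on the log2 scale. CKO 1 again lay inside the flox range, and CKO 2 to 5 lay below it. The ratio of Arntl to Nr1d1, which stand in opposite phase in cycling tissues, was 1.15 to 2.51 in flox and 2.22 in CKO 1, against 3.37 to 4.21 in CKO 2 to 5. These 3 ratios share genes and do not count as separate evidence.

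**Figure D3:**
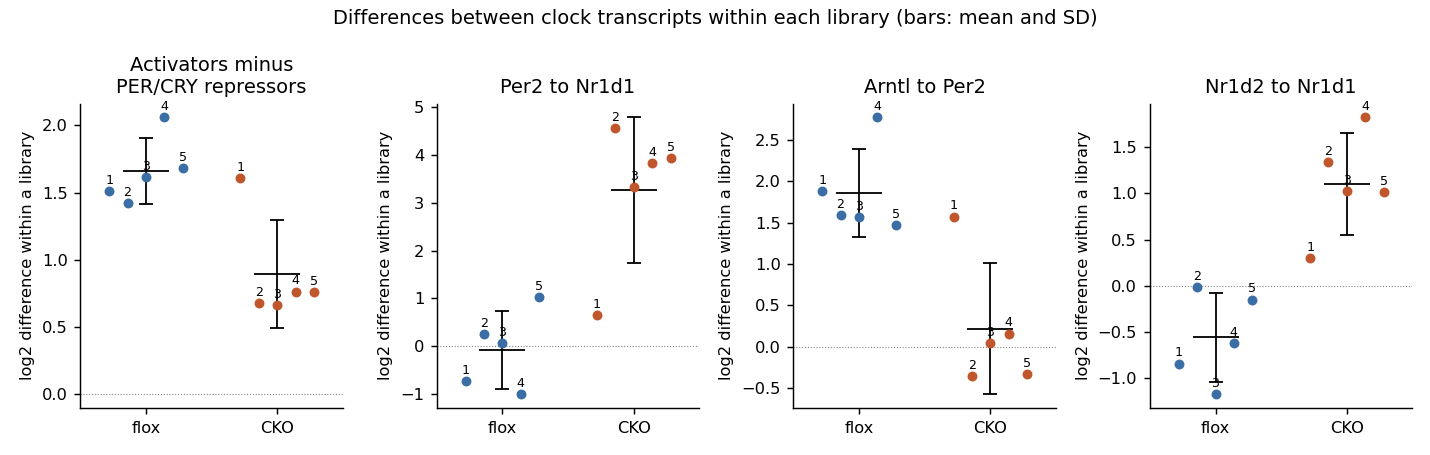
Differences between clock transcripts within each library (vertical axes, log2 scale), with points numbered by replicate and bars for the mean and SD of 5 libraries per group. CKO 1 lies among the flox libraries in the first 3 panels, with Per2 to Nr1d1 at 0.65 against 3.33 to 4.57 in CKO 2 to 5.

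CKO 1 did not lie with flox at every gene. In the loop it was above every flox library at Clock, at 47.7 CPM against 41.1 CPM in flox 5. It was also above every flox library at Cry1, Arntl and Nr1d2, and narrowly at Cry2. Bmp7, a signalling ligand named here after its values were seen, was at 3.41 CPM in CKO 1 and 1.45 to 3.62 CPM in the other CKO libraries, against 9.44 to 25.7 CPM in flox. Muc2, the main mucin of goblet cells, was at 9531 CPM in CKO 1, below the 11358 CPM of the lowest flox library. The mitochondrial share of CKO 1 was 6.38% and its total count 20074023, both inside the range of the other libraries.

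Per gene length, on the deposited FPKM scale, Arntl, Npas2 and Cry1 were the most abundant members in both groups. The median of all genes was itself higher in CKO on this scale, so levels are read within a group. In flox they stood at 11.1 ± 6.10, 10.6 ± 6.11 and 8.52 ± 3.24 FPKM (SD, n = 5 each), and did not differ from each other beyond their spread. Cry1 exceeded the next gene, Clock at 3.66 ± 1.36 FPKM, by more than their SDs added, in 5 of 5 libraries. Below it Cry2, Nr1d1, Per1, Nr1d2, Per2 and Per3 followed down to 0.676 ± 0.482 FPKM, with no gap between neighbours larger than their SDs added. Within libraries, Per1 was still above Nr1d2 and Per2 above Per3 in 5 of 5. These SDs take in spread that genes of a library share. In flox 1 and flox 4 Arntl was at 3.42 and 6.17 FPKM, against 12.55 to 17.13 FPKM in the other flox libraries. In CKO the order began with Cry1 at 17.0 ± 2.37, Arntl at 16.7 ± 3.48 and Npas2 at 15.4 ± 3.82 FPKM, and stepped down to Cry2 at 7.83 ± 1.56 FPKM. Per2 held rank 9 of the members in flox, at 1.57 ± 1.10 FPKM, and rank 5 in CKO, at 7.20 ± 3.51 FPKM. Nr1d1 went the other way, from rank 6 at 3.07 ± 1.33 FPKM to rank 9 at 1.85 ± 1.39 FPKM. In CKO it was above Per3, the next gene, in 1 library only, CKO 1 at 4.21 FPKM. In CKO 2 to 5 Nr1d1 was at 0.66 to 1.82 FPKM. Of 9 neighbouring pairs, 1 in flox and 2 in CKO were further apart than their SDs added.

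**Figure D4:**
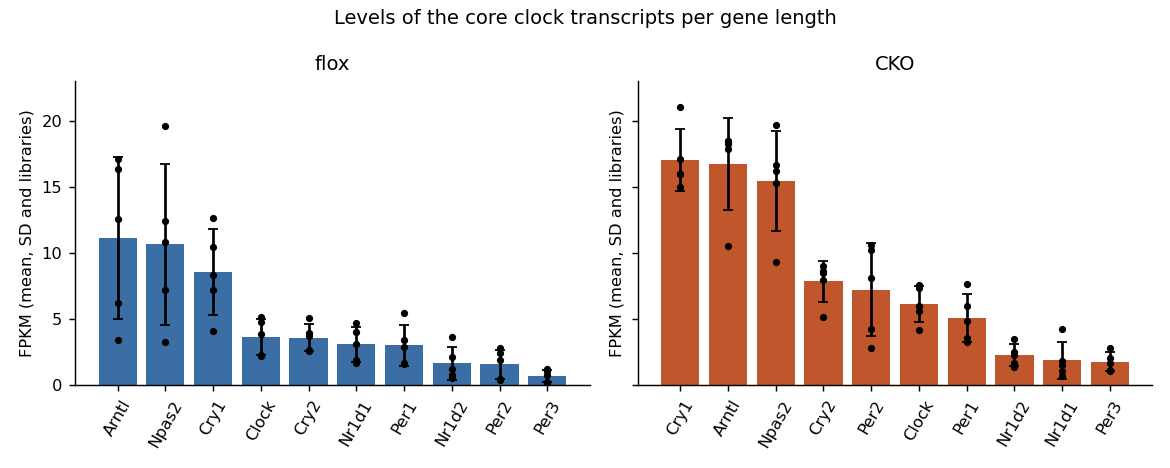
Mean FPKM with SD (bars) and single libraries (points) for the 10 members, ordered by mean within flox (left) and within CKO (right). Arntl, Npas2 and Cry1 lead in both groups, at 8.52 to 11.1 FPKM in flox and 15.4 to 17.0 FPKM in CKO, while Per2 moves up and Nr1d1 down the order. Levels are read within a group, since the median of all genes was also higher in CKO on this scale.

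Other transcription factors of the clock were taken from a list of 10, of which 5 passed the filter (Rora, Rorb, Ciart, Bhlhe41 and Hlf did not). Of the 5, 3 were higher and 2 lower in CKO, with 0 past the edgeR threshold and a median log2 fold change of 0.29. Tef, a PAR bZIP activator at D-boxes, stood at 7.59, 8.45, 6.46, 11.6 and 7.27 CPM in flox and 11.6, 19.6, 24.4, 16.9 and 25.01 CPM in CKO. CKO 1 was level with flox 4, and its log2 fold change over all libraries was 1.24 ± 0.23 (SE, edgeR adjusted p = 0.174, DESeq2 adjusted p = 0.000704). Bhlhe40, a repressor that competes for E-boxes, averaged 99.6 ± 18.3 CPM over flox libraries and 122 ± 14.9 CPM over CKO libraries (SD, n = 5 each). Its log2 fold change was 0.29 ± 0.15 (SE), and 0.14 without flox 1 and flox 4.

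Nfil3, a repressor at D-boxes and itself a target of REV-ERB, was at 18.1 to 29.9 CPM in flox and 30.3 CPM in CKO 1, against 18.1, 11.1, 12.4 and 8.60 CPM in CKO 2 to 5. Its log2 fold change was -0.50 ± 0.30 (SE), and -0.85 without CKO 1. Dbp, the PAR bZIP factor with the sharpest rhythm in many tissues, was low throughout, with a mean of 1.66 ± 0.317 CPM over flox libraries and 2.38 ± 0.575 CPM over CKO libraries (SD, n = 5 each). In Tef and Nfil3, as in Per2, Nr1d1 and Cry2, CKO 1 thus lay in or beside the flox range. Apart from the flags for a far library given below, CKO 1 was not tested against the other CKO libraries. It was singled out by these values.

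**Figure D5:**
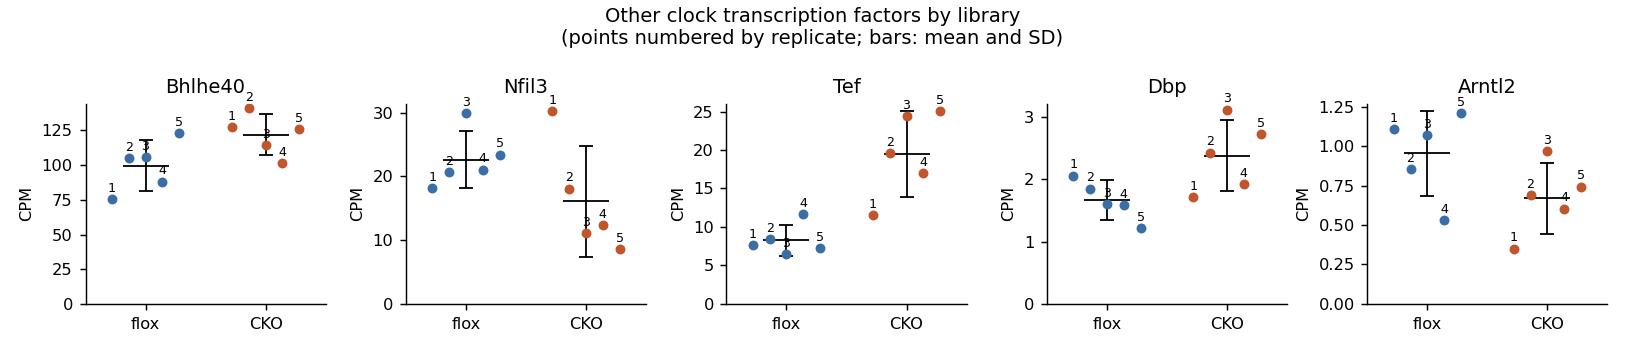
Levels of 5 other clock transcription factors (vertical axes, CPM) by library, with points numbered by replicate and bars for the mean and SD of 5 libraries. For Tef, CKO 1 is at 11.6 CPM beside flox 4 at 11.6 CPM, and CKO 2 to 5 are at 16.9 to 25.01 CPM.

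Transcripts of the proteins that modify and partner the loop were counted as well. Of 31 listed kinases, ubiquitin ligases and cofactors, 29 were tested, 21 higher and 8 lower in CKO, 0 past the edgeR threshold, with a median log2 fold change of 0.11. The smallest p values belonged to Cipc, an inhibitor of CLOCK (59.4 ± 8.88 CPM in flox, 74.6 ± 6.09 CPM in CKO), Hdac3, the deacetylase that works with REV-ERB (74.0 ± 4.21 and 64.0 ± 3.01 CPM), and Tipin, a partner of TIMELESS (6.87 ± 1.14 and 9.18 ± 1.91 CPM; SD, n = 5 each). Of 20 genes that cycle in many tissues, 18 were tested, 12 higher and 6 lower, with 0 past the threshold and a median of 0.12. Wee1, a cell cycle kinase with E-boxes, had a log2 fold change of 0.55 ± 0.20, Lpin1 -0.42 ± 0.19 and Rev1 0.60 ± 0.28 (SE), or 0.28 for Rev1 without flox 1 and flox 4.

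Genes that answer to signals able to reset clocks were counted in the same way. Of 11 glucocorticoid-responsive genes 10 were tested, 9 higher and 1 lower in CKO, with 0 past the edgeR threshold and a median log2 fold change of 0.22. Hsd11b2, which inactivates glucocorticoids, averaged 161 ± 39.4 CPM over flox libraries and 277 ± 54.1 CPM over CKO libraries. All its CKO libraries lay above all flox libraries, as in 0.922% of tested genes. Its log2 fold change was 0.79, or 0.59 without flox 1 and flox 4. Sgk1 had a log2 fold change of 0.74 ± 0.21 (SE), or 0.60 without flox 1 and flox 4, and Zbtb16 of 1.39 ± 0.63 (SE). Zbtb16 was near the floor, with 2 reads in CKO 4 and 65 in CKO 5. Of the genes with larger p, Tsc22d3 was at 0.17 ± 0.19 and Fkbp5 at 0.01 ± 0.19 (SE). The summed level of the 10 tested genes ran from 522 to 742 CPM in flox and from 711 to 878 CPM in CKO, where CKO 1 was highest. Of 15 immediate early genes 13 were tested, 9 higher and 4 lower, with 0 past the threshold and a median of 0.10. Fosb, Dusp1 and Nr4a1 had log2 fold changes of 0.90, 0.29 and -0.25. Without CKO 5 the first 2 were 0.46 and 0.18, and without flox 2 Nr4a1 was at -0.09. Of 10 heat shock and cold-inducible genes 7 were higher and 3 lower, with a median of 0.19, and Hspa1a, Hsph1 and Hspa1b had log2 fold changes of 1.46, 0.35 and 1.57, again with 0 past the threshold. Without CKO 2, the library highest in all 3, these were 0.34, 0.22 and 0.48. The part of these genes in the clock values was not tested.

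Markers of other cell types were counted beside these genes. Of 15 markers of fibroblasts and muscle, 11 were tested and 11 were higher in CKO (median log2 fold change 0.94, 0 past the edgeR threshold), among them Col3a1, Col6a2 and Col1a2 at 1.39, 1.21 and 1.43. Summed per library, they reached 29.0 to 91.4 CPM in flox. CKO 1 and CKO 2 had 67.0 and 74.1 CPM, and CKO 3 to 5 had 160 to 246 CPM. The part of these cells in the clock values was not tested. Of 18 epithelial markers 8 were higher and 10 lower (median -0.07, 0 past the threshold), and their sum ran from 40869 to 45423 CPM in flox and from 19977 to 39101 CPM in CKO. Muc2 and Krt8 weigh most in that sum, with means of 14237 and 10855 CPM in flox. Epcam and Cdh1 had means of 1028 and 854 CPM in CKO, against 871 and 781 CPM in flox. Both were lowest in flox 1 and flox 4, at 559 and 700 CPM for Epcam and 534 and 692 CPM for Cdh1. For Epcam the other flox libraries had 969 to 1102 CPM and the CKO libraries 961 to 1134.5 CPM. For Cdh1 these ranges were 807 to 991 CPM and 771 to 968 CPM. Krt18 and Slc26a3 had log2 fold changes of -1.14 and 0.77, and Muc2 of -0.73; without flox 1 and flox 4 Krt18 was at -0.58. Of 11 tested leukocyte markers 2 were higher and 9 lower (median -0.18), with Igha, Jchain and Itgam at -1.16, -1.10 and 0.66, or -0.77, -0.11 and 0.37 without flox 4. The sums were 23.3 to 47.8 CPM in flox and 26.3 to 43.6 CPM in CKO. Of 8 endothelial markers 3 were tested, with Vwf, Plvap and Pecam1 at -0.86, -0.91 and 0.16 (Plvap -1.58 without CKO 2, Pecam1 -0.14 without CKO 5), and sums of 8.06 to 11.1 CPM in flox and 4.28 to 7.75 CPM in CKO. Of 8 markers of enteric neurons and glia, 2 were tested, Ret at -0.22 and Snap25 at -0.26 (0.02 for Snap25 without flox 2), with sums of 2.12 to 4.12 and 1.24 to 3.02 CPM. In these last 3 lists 0 genes passed the threshold.

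Genes whose profile over the 10 libraries lay nearest to a member were found by the mean absolute difference in log2 CPM, each gene centred on its own mean, among 11883 genes with at least 2 CPM. Nearest to Per2 were Per3 (0.51), B4galnt3, a glycosyltransferase (0.51), and Mdn1, a factor of ribosome assembly (0.51), where the median gene was at 1.06. Nearest to Arntl were Top1, a DNA topoisomerase, and Kmt2e, both at 0.06, where the median gene was at 0.36. Nearest to Nr1d1 were Arhgap9 (0.41), AI838599 (0.42) and Gm1965 (0.45), with a median gene at 0.84. Arntl had neighbours outside the clock at 0.06, and Per2 and Nr1d1 had none closer than 0.41. The median gene also lay further from Per2 and Nr1d1 than from Arntl, so these distances are not compared between members.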

How the data were processed

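RNA was measured in 5 flox and 5 CKO libraries of colon crypts, prepared as TruSeq mRNA libraries, per the labels' protocols. The submitters' processing notes name fastp and HISAT2. Their versions, the strand setting and counting tool, the annotation and the genome build were, as far as the labels and file headers go, not given in the sources used here. Whole-number counts per Ensembl gene ID, not normalized, were deposited by the authors, as were FPKM values, which divide by gene length and by the size of the library. Symbols came from GENCODE M21 (26095 of 33632 IDs matched), and promoters from RefSeq, GRCm38.p6. Groups and replicate numbers came from sample titles.

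The members and gene lists were chosen with earlier results of these data known. Genes were filtered with filterByExpr, scaled by trimmed mean of M values and tested by the quasi-likelihood method of edgeR 4.0.16 in R 4.3.3 with group as the single term, adjusted by Benjamini-Hochberg over 14963 genes at 0.05. Log2 CPM used a prior count of 2. Ratios within libraries were not tested. Some genes that the lists or the likeness rule take in are not reported here, and the list counts leave them out. From each list the counts and the 3 genes with the smallest p are named. Bmp7, Thra and Nfil3 were named after their values were seen. Krt8, Epcam, Cdh1, Tsc22d3 and Fkbp5 are named too, though they were not among the 3 smallest p of their lists. Alternatives were other scalings and filters, DESeq2 1.42.0, limma 3.58.1 (voom with quality weights; log2(FPKM + 1) and log2(FPKM + 0.1)), the replicate number as a block, mitochondrial share as covariate, and leaving out libraries; DESeq2 without flox 1 and flox 4, and leaving out libraries for genes of the other lists, were added after seeing the data. No pair of libraries matched within sampling noise (lowest chi-square per degree of freedom 17.9). Total counts were 18926634 to 23642415 per library; counting errors cover sampling of reads only.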

Additional observations from a re-analysis of the deposited data

Results flagged for a closer look

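Among 36 sets of 5 libraries (10 members and 8 within-library differences, in each group), 4 had 1 library far from the other 4. Far meant a gap to the nearest library above 0.71 of the range, where chance flags about 1 set in 20. The sets share genes, and the members were selected on differences in these libraries, so the flags are a description and support nothing. In all 4 flagged sets the far library was CKO 1. Nr1d1 was at 8.62 CPM in CKO 1 and 1.65 to 3.46 CPM in the other CKO libraries, and Npas2 at 32.0 CPM against 26.9 to 28.2 CPM. The activators minus the PER and CRY repressors stood at 1.61 in CKO 1 against 0.66 to 0.76, and the Arntl to Per2 ratio at 1.57 against -0.35 to 0.16, both on the log2 scale.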

How the results depend on the processing

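The 10 members kept the direction of their log2 fold change in 22 alternatives each, except Npas2, which went from -0.14 to 0.64 on log2(FPKM + 1) and to 0.71 on log2(FPKM + 0.1). On those 2 scales the median of all genes was itself 0.30 and 0.41, against 0.001 with edgeR. The Per2 fold change ranged from 1.42 to 2.32, that of Nr1d1 from -1.67 (without CKO 1) to -0.56, and that of Arntl from 0.04 to 0.79. The count of members past the threshold was 0 with edgeR and limma and 2 with DESeq2, also 2 with DESeq2 without flox 1 and flox 4.

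Over all genes edgeR called 0, DESeq2 178, DESeq2 without flox 1 and flox 4 71, limma voom with quality weights 44, edgeR without a filter 3, and edgeR with the mitochondrial share as covariate 1. Leaving out 1 library gave 0 to 2 genes, the 2 without flox 2. With the replicate number as a block 0 genes and 0 members passed, with Per2 at 2.01 (edgeR adjusted p = 0.0678). The SE of Per2 was 0.18 with the block and 0.42 without it, and that of Nr1d2 was 0.32 and 0.28. Same-numbered libraries had correlations of -0.30, 0.28, 0.09, 0.40 and -0.06 in their deviations from group means. Such correlations over all genes cannot settle whether the numbers mark pairs, and the labels do not say. The activators minus repressors difference ranged from -0.94 to -0.60, the Per2 to Nr1d1 difference from 2.80 to 3.98, and the Arntl to Per2 difference from -1.98 to -1.32. Depth limits Per3 and Nr1d1 most, at 16 and 30 reads in their lowest library.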
